A study of Oreochromis mossambicus with 6 samples.

Results

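Cortisol acts on the tilapia gill through corticosteroid receptors, and its access to them is set in part by enzymes that interconvert active and inactive steroids. The genes examined here are those whose symbol in the deposited table, read without regard to case, begins with nr3c1, nr3c2 or hsd11b and that held at least 10 counts over all libraries. There were 6 such genes among 32591 in the table, 3 for receptors and 3 for enzymes. All 6 passed the count minimum, with totals from 46 to 34099 counts. They were chosen by a rule on names, set with earlier results of these data known.

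In vertebrates, nr3c1 encodes the glucocorticoid receptor and nr3c2 the mineralocorticoid receptor. Both are ligand-activated transcription factors that wait in a complex with Hsp90 and its co-chaperones, enter the nucleus once a steroid binds and act at the promoters and enhancers of target genes. Teleost fishes commonly carry a pair of glucocorticoid receptor genes and make no aldosterone, so that cortisol is the main ligand of both kinds of receptor. The product of hsd11b2 oxidizes cortisol to inactive cortisone and, in mammalian kidney, keeps cortisol away from the mineralocorticoid receptor. The product of hsd11b1la is named for its likeness to the short-chain dehydrogenase HSD11B1L of mammals.

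Gill filaments came from 6 wild-type male Mozambique tilapia of 80 to 110 g, all hypophysectomized. That operation removes the source of the pituitary hormones, including the one that drives cortisol secretion. The study reports that complete removal was checked after death by inspecting the hypothalamic region. Counts of prl and POMC in vehicle libraries are given below, and whether any hormone remained was not tested here. After 5 days of recovery in brackish water of 12 ppt, 3 fish received ovine prolactin (oPrl) at 5 μg per g body weight and 3 received saline vehicle, in 3 intraperitoneal injections given 48 h apart, and filaments were taken 24 h after the last. Each library is 1 fish, and no library here comes from a fish with an intact pituitary or from one given cortisol. The question put to these genes was whether receptor or enzyme transcripts differed between treatments in which cortisol-responsive genes differ widely.

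The libraries held 21643589 to 35976655 counts on genes. Values are CPM, which are counts scaled to library size with edgeR's TMM factors. A gene was called where edgeR's quasi-likelihood test gave an adjusted p below 0.01 with a log2 fold change beyond 1 in size, and fold changes are oPrl relative to vehicle. Epithelial, leukocyte and endothelial markers were present in all libraries. In the leukocyte list the 5 tested genes summed to between 1470 and 1680 CPM with oPrl and between 1520 and 1910 CPM with vehicle, and 0 were called by edgeR or DESeq2 (1, csf1ra, at an unadjusted p under 0.05 by edgeR). In the epithelial list the 5 tested genes summed to between 3190 and 5020 CPM with oPrl and between 4920 and 5410 CPM with vehicle, with 0 called by edgeR or DESeq2 and 2 at an unadjusted p under 0.05 by edgeR, the keratin gene krt8 (log2 fold change -0.56, without overlap) and the adhesion gene epcam (-0.51, with overlap). Muscle genes ranged from 5.06 to 212 CPM in sum among vehicle libraries. The pituitary marker prl had 2.19, 3.67 and 0.204 CPM in vehicle replicates 1, 2 and 3 and at most 0.0566 CPM with oPrl. It was called lower by DESeq2 (adjusted p = 7.42e-05) and not by edgeR (adjusted p = 0.0377). The pituitary marker POMC had 5, 6 and 0 counts in vehicle replicates 1, 2 and 3 and 0 in each oPrl library. The part of these differences in the results was not tested.

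None of the 6 genes was called by edgeR, whereas DESeq2 at the same thresholds called 1 of them, hsd11b2, and 1 had an unadjusted p under 0.05 by edgeR. Over all 24878 genes tested, edgeR called 1.4% and DESeq2 6.01%. In 2 of the 6, hsd11b2 and 1 copy of hsd11b1la, every oPrl library lay below every vehicle library, compared with 12.7% of all genes separated in that direction, 16.3% in the other and 29% in either. An unadjusted p under 0.05 was found in 21.7% of all genes by edgeR.

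The enzyme gene hsd11b2 (ENSONIG00000003266) showed the clearest difference of the 6. Its level was 94.5, 101 and 148 CPM in oPrl replicates 1, 2 and 3 and 286, 238 and 352 CPM in the vehicle replicates. The groups did not overlap, and the highest oPrl fish was well below the lowest vehicle fish. The means were 115 ± 29.4 CPM after oPrl and 292 ± 57.2 CPM after vehicle (SD, n = 3 each), so that oPrl-injected fish held 39.3% of the vehicle level. On the log2 scale the difference was -1.35 (SE 0.23), with a 95% interval of -1.89 to -0.81. The adjusted p was 0.019 by edgeR's quasi-likelihood test, above the threshold, and 7.82e-06 by DESeq2, past it. By edgeR's p it ranked 680 among the genes tested. Removal of any 1 fish gave values from -1.58 to -1.19, with adjusted p from 0.0343 to 0.078 in edgeR.

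**Figure D1:**
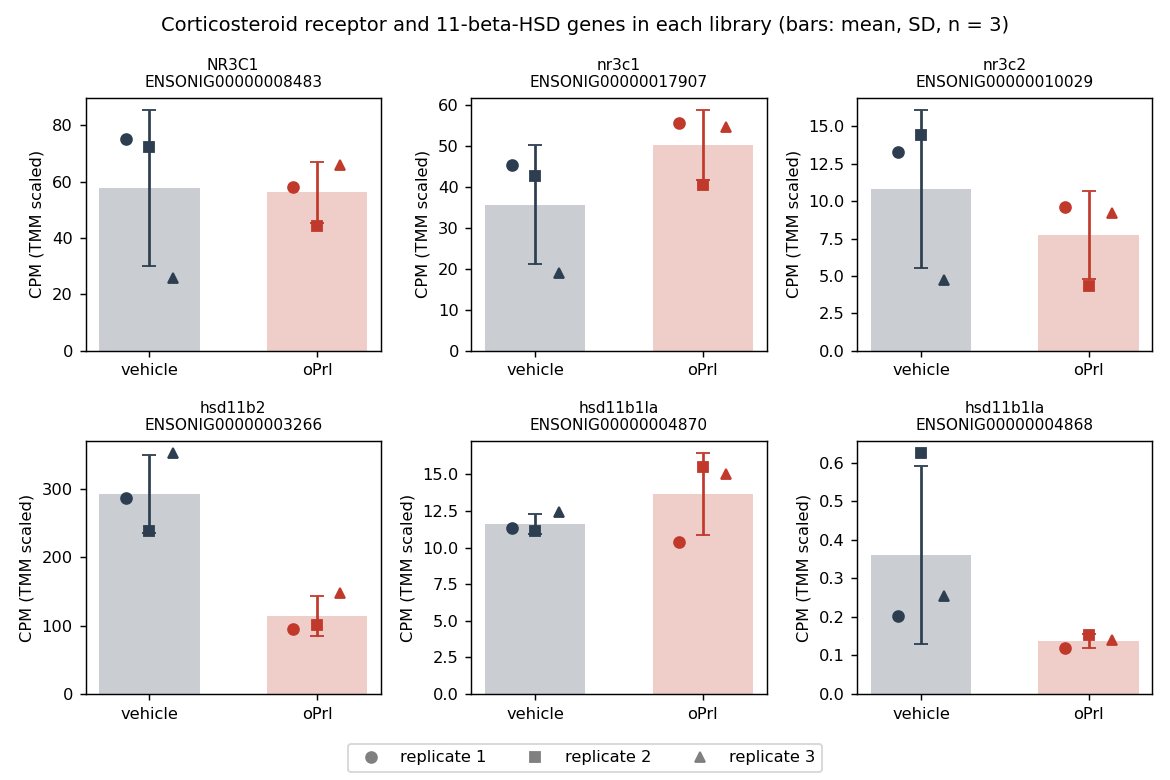
Level of each of the 6 genes in CPM on linear axes that start at 0, by treatment, with 1 symbol per fish, bars at the mean and whiskers of 1 SD (n = 3). The hsd11b2 values of 94.5 to 148 CPM with oPrl all lie below those of 238 to 352 CPM with vehicle, whereas vehicle replicate 3 (triangle) lies far below the other vehicle fish in all 3 receptor genes.

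The lower level of hsd11b2 came with lower levels of some ionocyte markers. Of the 6 ionocyte markers tested, the summed level was 1530 to 2160 CPM with oPrl and 3040 to 4460 CPM with vehicle, the median log2 fold change was -0.56, and 0 were called by edgeR (2, atp1a1b and ca2, at an unadjusted p under 0.05, both called by DESeq2). The sum rested largely on atp1a1b, a sodium pump subunit gene, with 1260, 1180 and 1030 CPM with oPrl and 2990, 2060 and 2670 CPM with vehicle (log2 fold change -1.15, adjusted p = 0.0123, edgeR). The other markers, foxi3b, foxi1, slc12a2 and cftr, overlapped between treatments. The epithelial genes krt8 and epcam were also lower in mean with oPrl, as given above. In filament RNA, fewer cells of a type and less RNA per cell cannot be told apart, and the part of ionocyte or epithelial cell number in the hsd11b2 result was not tested.

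The table lists hsd11b1la under 2 gene IDs. The copy ENSONIG00000004870 had 10.4, 15.5 and 15 CPM in oPrl replicates 1, 2 and 3 and 11.3, 11.1 and 12.4 CPM in the vehicle replicates. The treatments overlapped, since oPrl replicate 1 was the lowest of all 6 fish and the other oPrl fish were the highest. The log2 fold change was 0.24 with a 95% interval of -0.26 to 0.74 (adjusted p = 0.586, edgeR). A change by a factor as large as that of hsd11b2 lies outside this interval.

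The other copy, ENSONIG00000004868, was near the limit of detection. It held 4, 5 and 5 counts in the oPrl libraries and 5, 22 and 5 in the vehicle libraries. Scaled to library size, all oPrl values (0.118 to 0.154 CPM) lay under all vehicle values (0.202 to 0.625 CPM), but vehicle replicate 2 carried most of the difference. The log2 fold change was -1.39 with an interval of -2.88 to 0.1 (adjusted p = 0.261, edgeR), and -0.74 without vehicle replicate 2. Reads that match both copies cannot be assigned with certainty, so their separate levels are uncertain.

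The glucocorticoid receptor genes are likewise a pair, written NR3C1 (ENSONIG00000008483) and nr3c1 (ENSONIG00000017907) in the table, and neither is labelled there as gr1 or gr2. As for hsd11b1la, reads from stretches that the pair share may be assigned to either or to none. For NR3C1 the level was 58.3, 44.3 and 66 CPM in oPrl replicates 1, 2 and 3 and 75.2, 72.3 and 25.7 CPM in the vehicle replicates. Vehicle replicates 1 and 2 were above every oPrl fish, whereas vehicle replicate 3 was below every one. The means of 56.2 ± 11 CPM after oPrl and 57.8 ± 27.8 CPM after vehicle (SD, n = 3 each) differed by less than the spread between fish. The log2 fold change was -0.04 with a 95% interval of -0.94 to 0.86 (adjusted p = 0.967, edgeR), and its sign turned, to 0.13, when library totals replaced the TMM scaling.

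For nr3c1 the level was 55.6, 40.4 and 54.7 CPM with oPrl and 45.4, 42.6 and 19 CPM with vehicle. Here 2 oPrl fish exceeded every vehicle fish, and oPrl replicate 2 fell among them. The mean was 50.3 ± 8.51 CPM in the oPrl fish and 35.7 ± 14.5 CPM in the vehicle fish (SD, n = 3 each). On the log2 scale this was 0.49, with an interval of -0.27 to 1.26 (adjusted p = 0.443, edgeR). Without vehicle replicate 3 it was 0.2.

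The mineralocorticoid receptor gene nr3c2 (ENSONIG00000010029) was the least counted of the receptors, with 93 to 507 counts in a library. Its level was 9.61, 4.33 and 9.22 CPM with oPrl and 13.3, 14.4 and 4.73 CPM with vehicle. Vehicle replicates 1 and 2 again lay above every oPrl fish, and vehicle replicate 3 lay beside oPrl replicate 2 at the low end. The mean was 7.72 ± 2.94 CPM in the oPrl fish and 10.8 ± 5.3 CPM in the vehicle fish (SD, n = 3 each). On the log2 scale this was -0.49, with an interval of -1.59 to 0.61 (adjusted p = 0.612, edgeR). These intervals leave room for changes of more than 1 on the log2 scale, upward in nr3c1 and downward in nr3c2, and a lack of change is not shown.

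The receptor genes varied together among fish of 1 treatment. Vehicle replicate 3 held 34.9% of the mean of vehicle replicates 1 and 2 for NR3C1, 34.1% for nr3c2 and 43.1% for nr3c1, whereas it held 134% for hsd11b2. Within the oPrl group, replicate 2 was the lowest fish for each receptor, at 71.2%, 46% and 73.3% of the mean of the other oPrl fish for NR3C1, nr3c2 and nr3c1. Over the 6 libraries Pearson's r of log2(CPM + 1) was 0.87 between NR3C1 and nr3c1, 0.86 between NR3C1 and nr3c2 and 0.58 between nr3c1 and nr3c2. These values describe 6 libraries that share their scaling factors, and the low vehicle fish weighs on all of them. Without vehicle replicate 3 the log2 fold changes were -0.39 for NR3C1 and -0.83 for nr3c2 (adjusted p = 0.313 and 0.258, edgeR).

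Vehicle replicate 3 was also low in genes for receptor coregulators, the proteins that link a bound receptor to chromatin and the transcription machinery. Of 13 coregulator genes tested, 11 had their lowest value of all libraries in vehicle replicate 3, compared with 25.8% of the 17629 genes that averaged 1 CPM or more. Their median level in that fish was 0.498 of the mean of the other vehicle fish, whereas the median over those 17629 genes was 0.998. The corepressor gene ncor1 had 93.8 and 97.8 CPM in vehicle replicates 1 and 2 and 47.7 CPM in replicate 3, and the coactivator gene crebbpb had 84.8, 84.5 and 43.5 CPM. The chromatin remodeling gene smarca4a, at 156, 148 and 179 CPM, did not share this drop. Vehicle replicate 3, singled out after its values were seen, had the fewest counts of all libraries. The part of library depth or RNA quality in these low values was not tested.

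**Figure D2:**
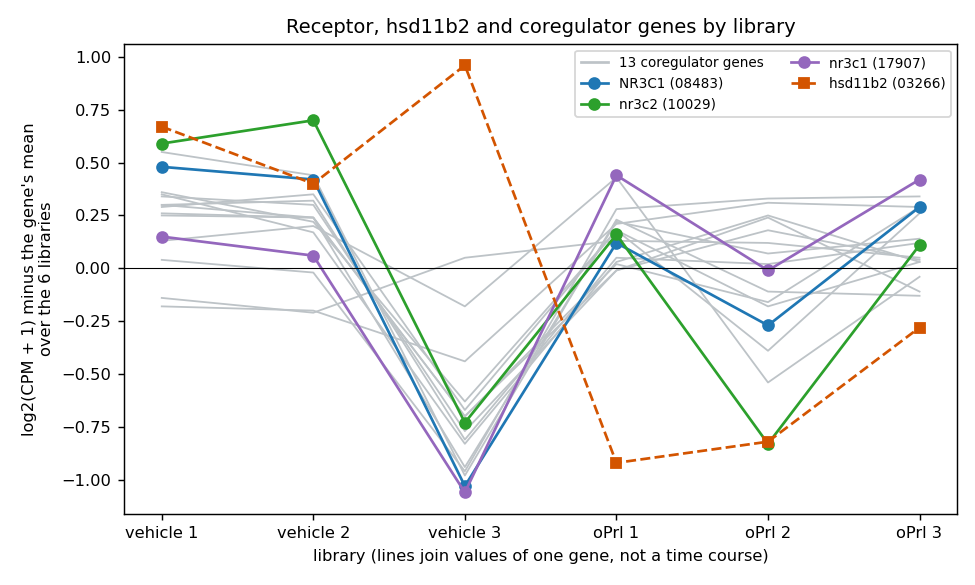
For each library, log2(CPM + 1) minus the gene's own mean over the 6 libraries, for the receptor genes, hsd11b2 and 13 coregulator genes (gray); numbers in the key are the last digits of the gene ID. The receptor genes and 11 of the 13 coregulator genes are low in vehicle replicate 3, where hsd11b2 is at its highest, 352 CPM.

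A ratio of counts from the same library does not depend on how libraries are scaled, and it cancels a drop that a pair of genes share. Among the 5 genes that averaged 1 CPM or more, 10 ratios were formed on the log2 scale. Since gene lengths were not used, only the difference of a ratio between treatments is read, not its level. With 3 fish against 3 the smallest p of the exact two-sided permutation test is 0.1, which becomes 0.167 after Benjamini-Hochberg adjustment over the 10 ratios.

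No ratio can reach 0.05 in this permutation test, so those of the receptor genes are given as values. The log2 ratio of nr3c2 to nr3c1 was -2.53, -3.22 and -2.57 in oPrl replicates 1, 2 and 3 and -1.77, -1.56 and -2 in the vehicle replicates. No oPrl fish reached the lowest vehicle fish, and vehicle replicate 3 lay close to the others in spite of its low receptor levels. The mean log2 difference was -1 (exact permutation test, two-sided, p = 0.1, adjusted p = 0.167), which ranged from -1.12 to -0.77 when any 1 fish was removed.

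The log2 ratio of NR3C1 to nr3c1 was 0.07, 0.13 and 0.27 with oPrl and 0.73, 0.76 and 0.44 with vehicle. The treatments again did not overlap, and the mean difference of -0.49 ranged from -0.59 to -0.43 with each library left out. The log2 ratio of NR3C1 to nr3c2 was 2.6, 3.35 and 2.84 with oPrl and 2.5, 2.33 and 2.44 with vehicle, a mean difference of 0.51 that lay between 0.3 and 0.67 with a library left out. Each of these ratios had an exact p of 0.1 (permutation test, two-sided).

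Relative to the enzyme and receptor genes, hsd11b2 was lower with oPrl in 3 of 4 ratios without overlap. Its mean log2 ratio differed by -1.57 to hsd11b1la (ENSONIG00000004870), by -1.45 to NR3C1 and by -1.94 to nr3c1, and without vehicle replicate 3 by -1.48, -0.8 and -1.39. The ratio of hsd11b2 to nr3c2 overlapped between treatments, with a mean difference of -0.94 (exact permutation test, two-sided, p = 0.4), and without vehicle replicate 3 this was -0.29. In all, 6 of the 10 ratios were without overlap. As a background, the ratio to a given gene was without overlap in 79.6% of 17628 genes for hsd11b2, 27.1% for nr3c1, 24.2% for hsd11b1la, 10% for NR3C1 and 9.2% for nr3c2. A ratio to hsd11b2 that separates the treatments was therefore the usual case among all genes. The receptor genes share a drop in vehicle replicate 3, which cancels in large part in their own ratios but not in ratios to genes without it. The shares for NR3C1, nr3c2 and nr3c1 are thus not a like background for ratios between receptor genes. No like background was computed, so how usual such separation is was not tested. The ratios between receptor genes are also not independent, since any of them follows from the others.

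**Figure D3:**
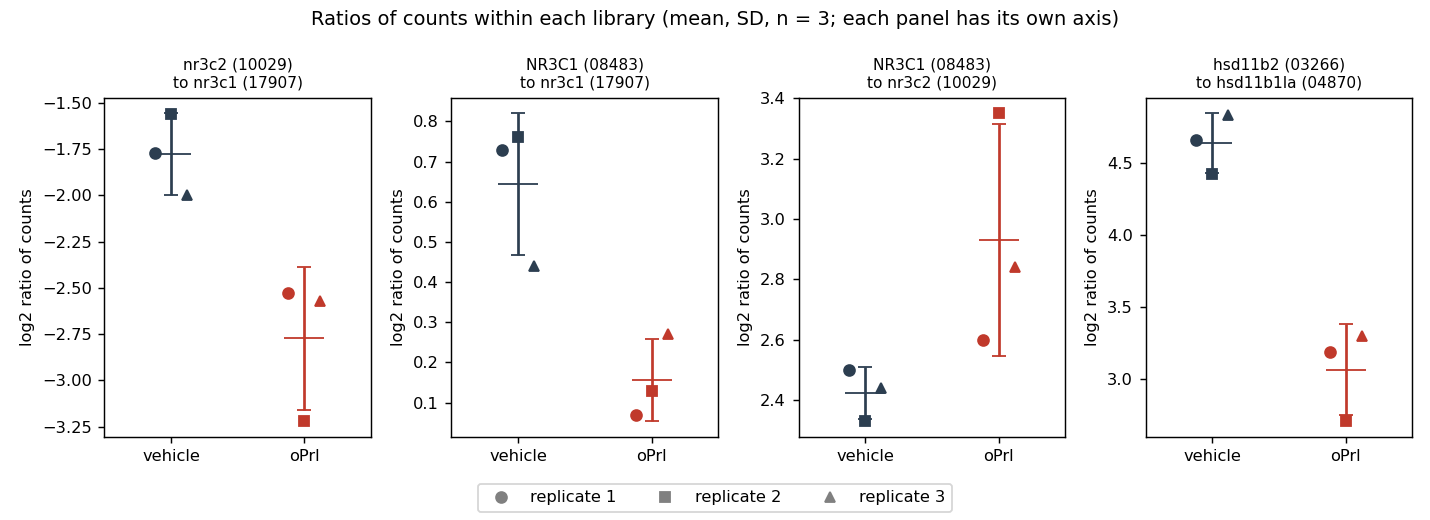
The log2 ratio of counts of 4 pairs of genes within each library, by treatment, with 1 symbol per fish, the mean and 1 SD (n = 3); each panel has its own axis, which does not start at 0, and numbers are the last digits of the gene ID. In each pair the treatments do not overlap, with a mean difference of -1 for nr3c2 to nr3c1 and -1.57 for hsd11b2 to hsd11b1la.

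Genes known from mammals or fish as cortisol targets were mostly lower with oPrl, 26 of 28 with a log2 fold change below 0, compared with 48.5% of all genes tested. Of 28 target genes tested, 7 were called lower and 1 higher by edgeR, compared with 0.687% lower and 0.715% higher over all genes, and 17 had an unadjusted p under 0.05. DESeq2 called 13 lower and 1 higher, compared with 2.94% and 3.08% over all genes. With a fish left out, the edgeR count of lower targets was 0 without oPrl replicate 1, oPrl replicate 3 or vehicle replicate 1. It was 1 without vehicle replicate 2, 5 without vehicle replicate 3 and 11 without oPrl replicate 2. No target was called higher in any of these. Calls over all genes, 349 with every fish, were 28, 5, 0, 22, 148 and 215 in the same order. The median log2 fold change of the targets stayed between -2 and -1.57. The list was chosen with results of these fish known, so its direction is not independent evidence. The median log2 fold change was -1.88, compared with 0.02 over all genes.

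The called falls covered a range of functions. The level of fkbp5, a co-chaperone that lowers the affinity of the glucocorticoid receptor in mammals, was 34.2, 130 and 34.3 CPM with oPrl and 2030, 1740 and 2940 CPM with vehicle (log2 fold change -5.08, adjusted p = 0.00716, edgeR). The gene ENSONIG00000031070, which carries a clone-based symbol in the table and is named tsc22d3 in the study's gene table, had 90.9, 110 and 98.3 CPM with oPrl and 1380, 1080 and 2140 CPM with vehicle. Other called falls were in ddit4, an mTOR inhibitor, at -5.85, errfi1a, an EGF receptor feedback inhibitor, at -2.93, lpin1, a phosphatidate phosphatase, at -2.18, the clock gene per1b at -2.09 and txnip, a thioredoxin inhibitor, at -2.02. The glutamine synthetase gene glulc rose by 1.37, whereas the listed genes glula and glulb were at -0.86 and -0.6 and were not called by either tool. The size of several falls depended on oPrl replicate 2, the oPrl fish with the highest levels of these genes, and without it the log2 fold change was -6.03 for fkbp5, -6.53 for ddit4, -3.51 for errfi1a and -2.81 for SGK1, which was then called (adjusted p = 0.00224, edgeR). With all fish, the kinase gene SGK1 had a log2 fold change of -2.18. It was not called by edgeR (adjusted p = 0.0239) but was called lower by DESeq2 (adjusted p = 1.54e-06). The abundant transcription factor gene cebpd had 219, 743 and 244 CPM with oPrl and 1920, 1670 and 1820 CPM with vehicle. It too was called lower by DESeq2 (adjusted p = 3.19e-05) and not by edgeR (adjusted p = 0.0391). Neither gene overlapped between treatments. The log2 fold change of 15 targets was more negative than that of hsd11b2, and that of 13 was not.

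**Figure D4:**
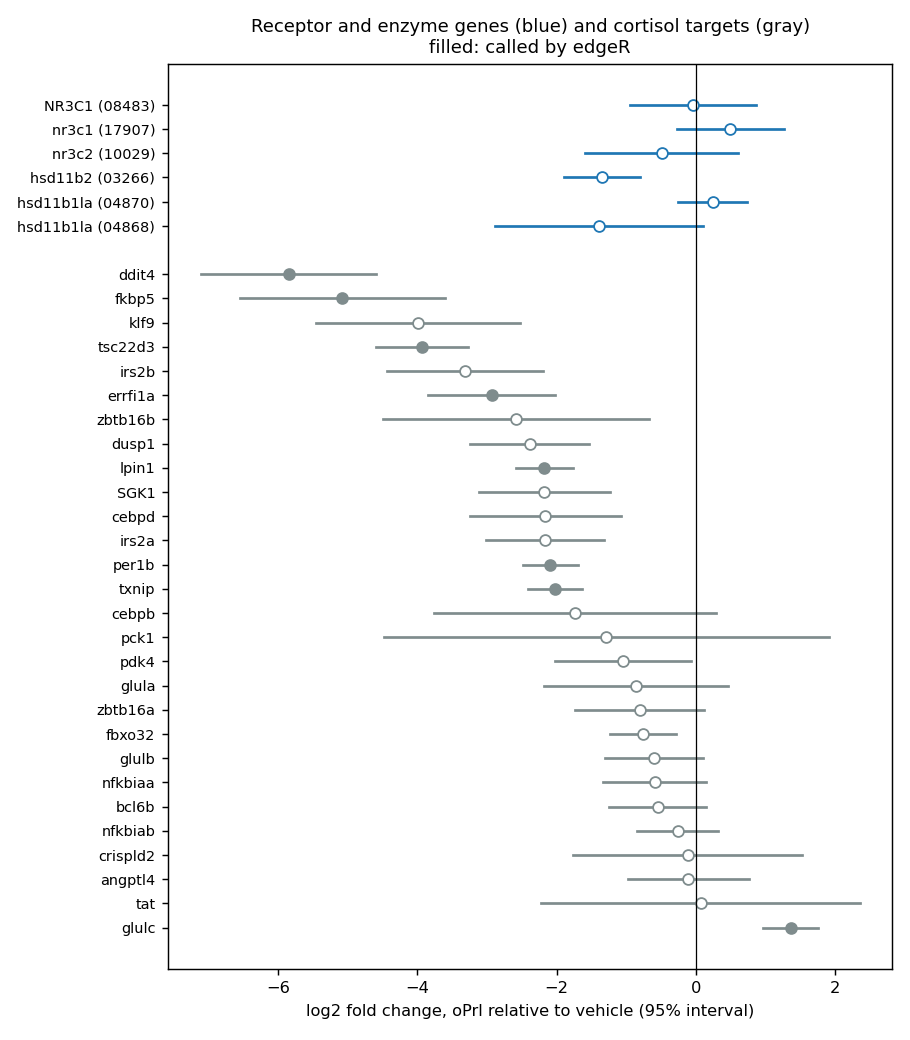
Log2 fold change of oPrl relative to vehicle with its 95% interval from edgeR's quasi-likelihood fit (n = 3 fish each) for the 6 genes (blue, with the last digits of the gene ID) and 28 cortisol targets (gray), filled where called. The receptor intervals span 0, whereas that of hsd11b2 runs from -1.89 to -0.81 and that of fkbp5 from -6.55 to -3.61.

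Among fish of 1 treatment, the targets were counted by the fish in which they were highest. Agreement of their ranks with those of the receptor genes was not counted. With 3 fish, unrelated genes will often rank them differently. Vehicle replicate 3, the lowest vehicle fish for every receptor gene, was the highest vehicle fish for 12 of 28 targets. Replicate 1 was the highest for 10 and replicate 2 for 6, and the matching shares over all genes were not computed. Levels of fkbp5, tsc22d3 and ddit4 were highest of all fish in vehicle replicate 3. For other targets it was the lowest vehicle fish, as for SGK1 (602, 516 and 485 CPM in vehicle replicates 1, 2 and 3) and per1b (259, 287 and 219 CPM). In that fish 17.9% of targets were under 60% of the mean of the other vehicle fish, compared with 13.6% of the 17629 genes that averaged 1 CPM or more. Within the oPrl group, replicate 2 was the highest for 18 of 28 targets, fkbp5 and SGK1 included, and the lowest for every receptor gene. The share of all genes highest in that fish was not computed. Relative to the vehicle mean, the median target lay at -1.85, -1.27 and -1.71 on the log2 scale in oPrl replicates 1, 2 and 3, while hsd11b2 lay at -1.6, -1.5 and -0.95. The least reduced oPrl fish was replicate 2 for the median target and replicate 3 for hsd11b2. With 3 fish in a treatment, no correlation was computed within treatments. A link of target levels to the receptor genes or to hsd11b2 was not tested.

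The receptor complex holds chaperones and co-chaperones besides fkbp5. Of 17 such genes, edgeR called 1, fkbp5, compared with 1.4% of all genes. An unadjusted p under 0.05 by edgeR was found in 11 of the 17, compared with 21.7% of all genes. Without overlap, 6 of the 17 were higher and 4 lower with oPrl, compared with 16.3% and 12.7% of all genes. With a fish left out, fkbp5 was called by edgeR only without oPrl replicate 2. In the other runs with a fish left out, fkbp5 had log2 fold changes of -5.28 to -4.77, with adjusted p from 0.0203 to 0.0307 (edgeR). DESeq2 called ppp5c higher and fkbp5 and hspa8b lower, and the median log2 fold change was 0.42. The most abundant, hsp90ab1, the constitutive Hsp90, had 4450 to 5570 CPM with oPrl and 4960 to 5360 CPM with vehicle, which overlapped (log2 fold change -0.1, adjusted p = 0.716, edgeR). The constitutive Hsp70 gene HSPA8 was at 2920 to 3410 CPM with oPrl and 3920 to 4650 CPM with vehicle (log2 fold change -0.43, adjusted p = 0.103). Among genes picked after their values were seen, fkbp4, whose product acts against that of fkbp5 at the mammalian receptor, had 104, 106 and 87.3 CPM with oPrl and 77.6, 75.2 and 69.5 CPM with vehicle, a log2 fold change of 0.42 that was not called (adjusted p = 0.144, edgeR). The phosphatase gene ppp5c, which binds Hsp90 through the same kind of domain, had 35.4 to 73.8 CPM with oPrl and 19.2 to 21.8 CPM with vehicle (log2 fold change 1.3, adjusted p = 0.0443, edgeR, and 0.00121 by DESeq2). Without oPrl replicate 2 its log2 fold change was 0.9.

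Of the 13 coregulator genes, 0 were called by either tool, 1, the Mediator subunit gene med1, had an unadjusted p under 0.05 by edgeR, and their median log2 fold change was 0.05. Without vehicle replicate 3 that median was -0.17. Of the 9 other steroid-type receptor genes tested, edgeR called 0 and DESeq2 1, esrrga, with 2 (esrrga and esrrgb) at an unadjusted p under 0.05 by edgeR. The androgen receptor gene ara had 7.41 to 8.81 CPM with oPrl and 8.91 to 9.36 CPM with vehicle (log2 fold change -0.21, adjusted p = 0.589, edgeR). The estrogen-related receptor genes esrra and esrrgb, which have no known steroid ligand, had log2 fold changes of -0.27 and 0.66 (adjusted p = 0.483 and 0.071).

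In the kinase pathway downstream of SGK1, edgeR called 0 of 5 genes and DESeq2 1, with 2 (wnk4b and oxsr1b) at an unadjusted p under 0.05 by edgeR. The DESeq2 call was wnk4b, a kinase that regulates sodium chloride cotransport, with 16.9, 11.7 and 8.83 CPM with oPrl and 38.2, 19.7 and 39.1 CPM with vehicle (log2 fold change -1.37, adjusted p = 0.061 by edgeR and 0.002 by DESeq2). The ubiquitin ligase gene nedd4l, a substrate of Sgk1 in mammals, had a log2 fold change of 0.27 (adjusted p = 0.606, edgeR). The WNK effector kinase genes stk39, oxsr1a and oxsr1b had log2 fold changes of -0.11, -0.02 and 0.58.

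Of 6 other steroid turnover genes tested, 0 were called by either tool and 0 had an unadjusted p under 0.05 by edgeR, with a median log2 fold change of -0.24. The gene h6pd, whose product supplies NADPH for cortisone reduction in mammals, had 18.2, 13.1 and 15.5 CPM with oPrl and 14.1, 14.8 and 9.01 CPM with vehicle. The log2 fold changes were 0.18 for srd5a1, -0.5 for srd5a2 and -0.29 for srd5a3, which belong to a family of steroid reductases, -0.85 for AKR1D1, another steroid reductase, and -0.19 for the carbonyl reductase gene cbr1.

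Genes for cortisol synthesis, which mark the steroid-producing interrenal cells of the head kidney, were low or absent. Of 8 such genes found in the table, 4 passed the count minimum. Their summed level was 5.56 to 6.71 CPM with oPrl and 6.8 to 10.5 CPM with vehicle. Most of this was cyp11a2, a cholesterol side-chain cleavage enzyme gene, with 4.51 to 4.7 CPM with oPrl and 5.63 to 7.23 CPM with vehicle (log2 fold change -0.42, adjusted p = 0.352, edgeR). The cholesterol transfer gene star did not exceed 0.828 CPM, and hsd3b1 did not exceed 2.8 CPM in any library. None was called by edgeR or DESeq2, and 1 had an unadjusted p under 0.05 by edgeR, cyp21a2, at no more than 0.204 CPM in any library.

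As a description of likeness, named genes that averaged 10 CPM or more were ordered by Pearson's r of log2(CPM + 1) with each of the 5 genes over the 6 libraries. For hsd11b2 the closest were si:cabz01007807.1 (r = 0.9922), the aminopeptidase gene xpnpep2 (r = 0.9920) and ccdc88b (r = 0.9912), and 111 of 8713 genes exceeded 0.95. In that order, these closest genes had log2 fold changes of -1.27, -2.12 and -0.31 (adjusted p = 0.0108, 0.0111 and 0.227, edgeR), and none was called by edgeR. For NR3C1 they were pdk3 (r = 0.9999), the histone demethylase gene kdm2ab (r = 0.9984) and WNK3 (r = 0.9944), for nr3c1 prkd3 (r = 0.9985), dock1 (r = 0.9959) and esyt3 (r = 0.9926), and for nr3c2 ARHGEF17 (r = 0.9995), zgc:92162 (r = 0.9968) and sorl1 (r = 0.9957). For hsd11b1la (ENSONIG00000004870) the closest genes were rgs14a (r = 0.9630), si:dkey-217d24.6 (r = 0.9604) and the glutathione reductase gene gsr (r = 0.9555), and 5 genes exceeded 0.95. These r values are the highest among 8713 or 8714 genes over only 6 libraries, and the profile shared with the receptor genes includes the low vehicle replicate 3.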

How the data were processed

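RNA from gill filaments of 6 hypophysectomized fish, 3 given oPrl and 3 given vehicle, was sequenced. The authors deposited whole-number counts per gene, not normalized. The submitters' processing notes name bcl2fastq 2.20, Trimmomatic 0.36, STAR 2.5.2b and featureCounts, and the reads were mapped to the genome of another species, the Nile tilapia. Which build and annotation were used, and whether counting used strand, is not given in the sources used here.

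Groups came from the labels. The 1 line of the table without a gene ID, with 0.0901% to 0.135% of a library's counts, was left out. Genes with at least 10 counts over the 6 libraries were tested in R 4.3.3 with edgeR 4.0.16 (TMM scaling, quasi-likelihood test, Benjamini-Hochberg adjustment over all genes tested) and, as an alternative, DESeq2 1.42.0. Intervals of fold changes are 95% intervals from the quasi-likelihood fit. Other scalings, count filters, a robust fit, a replicate block, a threshold of 0.05 and leaving out each library were also tried. Within-library ratios used counts plus 0.5. The test scripts were checked on simulated data. No pair of libraries of the same treatment agreed within sampling noise (chi-square per degree of freedom of at least 26.3), and each was counted as a sample. Pairs across treatments were not compared.

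The 6 genes and the gene lists were chosen with earlier results of these data known. Named from each list were the genes called by edgeR, the 3 with the largest mean CPM (all where 6 or fewer were found), fkbp5, SGK1 and tsc22d3, and the 3 named genes most correlated with each of the 5 genes that averaged 1 CPM or more. Of the marker lists only some genes that this rule gives are named, and the rest stand as sums. The genes ca2, krt8, epcam, csf1ra, fkbp4, ppp5c, hspa8b, med1, esrrga, cyp21a2, glula and glulb were chosen after their values were seen. The name tsc22d3 came from the study's supplementary gene table, and the authors' deposited comparison table of fold changes and p-values was not used.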

Additional observations from a re-analysis of the deposited data

How the results depend on the processing

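The call of hsd11b2 depended on the tool: its log2 fold change was -1.35 in edgeR, where it passed only an adjusted p under 0.05 without a fold threshold and no other alternative run in that tool, and -1.38 in DESeq2, where it was. NR3C1 had no stable sign, at -0.04 in the reported fit, 0.13 with library totals, 0.07 with the replicate block and -0.39 to 0.2 with a library left out. The other 4 of the 6 genes kept their direction under every alternative run, except that the filterByExpr filter gave no value for hsd11b1la ENSONIG00000004868. Over all genes, edgeR called 349 (178 higher, 171 lower), DESeq2 1496 (765 higher, 731 lower), an adjusted p under 0.05 without a fold threshold 1520 (815 higher, 705 lower), and library totals 505, of which 358 were higher, or 70.9% of calls compared with 51%, with the median of all genes moving from 0.02 to 0.19. With a library left out the count ranged from 0 to 215 (0 to 76 higher, 0 to 139 lower). The 0 came without vehicle replicate 1, where the smallest adjusted p in edgeR was 0.0123 and 4154 genes had an unadjusted p under 0.05; DESeq2 was not run on that subset. Lower cortisol targets numbered 7, 13 with DESeq2, 13 with an adjusted p under 0.05 and 0 to 11 with a library left out. Higher targets numbered 1, and 0 with any library left out. The target median was -1.88, and -2 to -1.57 with a library left out. Calls in the other pathway lists numbered 1, 5 with DESeq2, 3 with an adjusted p under 0.05 and 0 to 1 with a library left out. Separated ratio pairs numbered 6, and 6 to 8 with a library left out. The cause of these shifts was not tested.

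The shared replicate numbers did not pair the fish: deviations of same-numbered libraries correlated at -0.09, -0.1 and -0.02. With the replicate block, edgeR called 30 genes (13 higher, 17 lower), 1 lower and 0 higher cortisol target (median -2.05) and 0 genes of the other pathway lists, while hsd11b2 was at -1.36 (adjusted p = 0.0213).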
